A study of Rattus norvegicus with 8 samples.

Results

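The genes described here encode voltage-gated sodium channels, epithelial sodium channel subunits, voltage-gated calcium channels, HCN channels, TRP channels and the calcium release channels of intracellular stores. They were taken by name: every array probe whose accession maps to a rat gene symbol starting with Scn, Cacna, Cacnb, Cacng, Hcn, Trpa, Trpc, Trpm, Trpv, Ryr or Itpr. Probes for 59 such genes were on the array, and 42 of them passed the filter on dim probes, of 21667 genes tested in all. The rule uses names and detection and no difference between groups. RNA came from the cerebral cortex of 8 Wistar rats aged 8 weeks, 1 array per animal. The 4 HI animals (labelled Rice, for a modified Levine's procedure) had their left carotid artery cut under ether at 7 days of age and, after recovery, spent 1 h in 8% oxygen at 33 °C, which makes a hypoxic-ischemic (HI) injury. The 4 Control animals had no insult, and the labels give their treatment as none, so ether, artery cut and hypoxia differed together between the groups. The sampled cortex was that of the hemisphere opposite the injury, and of the same side in Control animals, so the comparison describes mature cortex remote from the injured hemisphere. Of 11 listed markers of cortical glutamatergic neurons, 4 were on the array (Slc17a7, Neurod2, Nrgn and Camk2a). All 4 passed the filter and were well above background on all 8 arrays. The filter itself asks for such signal on every array of a group, so this says little about the tissue.

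Voltage-gated sodium channels open when a neuron depolarises and carry the rising phase of the action potential, and voltage-gated calcium channels turn that depolarisation into calcium entry, transmitter release and calcium signalling. Each is built on a large pore-forming subunit with smaller partners that set its gating and its number at the membrane. HCN channels open on hyperpolarisation and shape the resting potential and dendritic integration of cortical pyramidal cells, TRP channels are cation channels gated by receptors, heat, osmotic or oxidative stimuli, and inositol trisphosphate receptors release calcium from the endoplasmic reticulum.

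Of the 42 genes kept, 36 had a probe well above background on all 8 arrays, and no value was saturated or missing. Every kept gene was well above background on at least 1 array of each group. Scnn1a, Trpv1, Trpc5, Itpr3 and Itpripl1 passed the filter through the HI arrays alone, and Scn11a through the Control arrays alone. These genes are part of the counts given below. Among the 17 genes not kept were Scn4a, Scn10a, Scnn1b, Scnn1g, Cacna1f, Cacna2d2, Cacng1, Cacng4, Cacng5, Hcn4, Trpa1, Trpc2, Trpm1, Trpm8, Trpv5 and Trpv6. For 13 of these no probe was well above background on any array; the others were so on some arrays, among them Cacna2d2 on 1 HI and 3 Control arrays, Scn4a on 0 HI and 1 Control array, and Cacng5 on 0 HI and 1 Control array. A further 26 of the 85 RefSeq symbols that fit the name rule had no matched probe and were not analysed here, among them Scn7a, Cacna1d, Cacna1h, Cacnb4, Trpm3 and the ryanodine receptors. Itpripl1 entered by its name alone: it encodes a protein related to an interactor of the inositol trisphosphate receptor and is no channel.

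None of the 42 genes was called different between HI and Control cortex (limma, Benjamini-Hochberg adjusted p under 0.05 over all genes), where 0.918% of all genes were called. The lowest adjusted p among the 42 was 0.299, for Scn3a. At an unadjusted p under 0.05, 1 of the 42 passed (2.38%) against 10.6% of all genes. The 4 HI values lay wholly below the 4 Control values for 3 genes (Scn3a, Scn2a and Trpc1), where 8.25% of all genes showed this, and wholly above them for 0 genes, where 5.98% of all genes did. The fitted change was below 0 for 24 genes (57.1%, against 53.0% of all genes) and above 0 for 18. Under quantile scaling 20 genes lay below 0 and under median centring 19, so the balance of directions depended on the scaling. The median change was -0.05 on the log2 scale (-0.03 over all genes), the median size of a change was 0.25 (0.23 over all genes), and changes ran between -1.87 for Scn11a and 0.74 for Scn1a. For 31 of the 42 genes the 95% interval of the change lay within 1 log2 unit of 0, that is, within 2-fold in either direction. The other intervals reached further, and the number of arrays limits what could be seen for those genes. In cortex as a bulk tissue, fewer cells of a type and less RNA per cell cannot be told apart in any of these values.

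**Figure D1:**
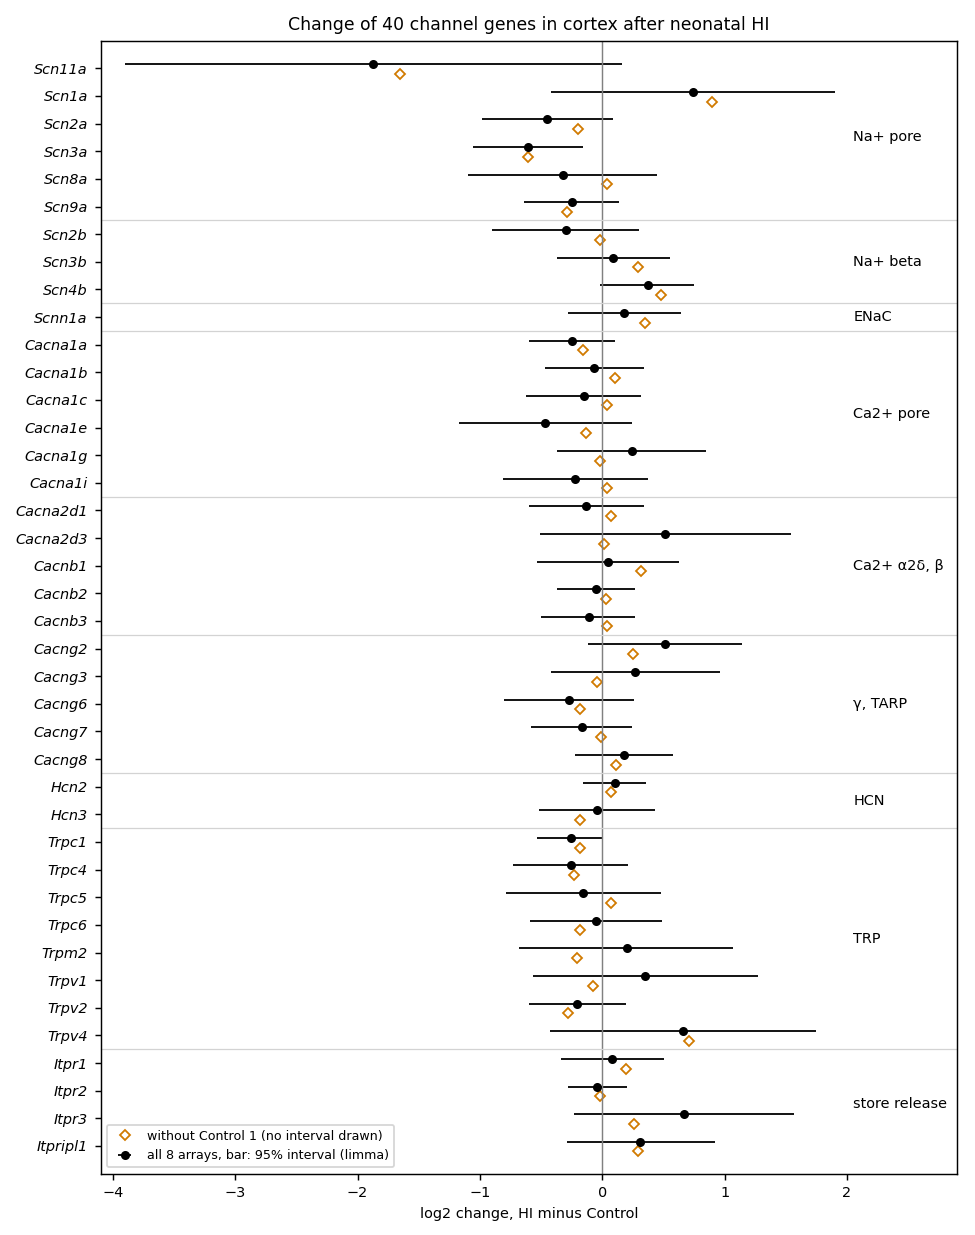
Log2 change (HI minus Control, x axis) of 40 of the kept channel genes, grouped by family down the page. Black points use all 8 arrays with limma's 95% interval as a bar, and open diamonds leave out the Control 1 array. Only the interval of Scn3a leaves out 0, and the diamonds of Scn8a, Cacna2d3, Trpm2 and Itpr3 lie well away from their black points.

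Facts of the arrays bear on every value below. All 4 HI arrays were on 1 slide with 1 scan and all 4 Control arrays on another, so a difference of group cannot be told apart from one of slide or scan. The Control 1 array had a 75th percentile of raw signal of 234.2 where the other 7 arrays had 436.1 to 510.2, and correlated with the others at 0.905 to 0.930 where those correlated with each other at 0.967 to 0.994. Control 1 was the array farthest from the rest for 23 of the 42 channel genes (54.8%, against 67.7% of all genes), highest of all arrays for 20 and lowest for 10. HI 2 was farthest for 8 (19%, against 10% of all genes). The median SD within a group was 0.177 on HI arrays, against 0.406 on Control arrays and 0.134 on the Control arrays without Control 1. Changes are therefore given with all arrays and, where their sign turned or they moved most, also without Control 1.

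Without Control 1, again 0 of the 42 genes were called, where 3.67% of all genes were, and the lowest adjusted p was 0.0811, for Cacnb1. At an unadjusted p under 0.05, 5 genes were higher in HI (among them Cacnb1, Scn4b, Scn3b and Scnn1a) against 10.0% of all genes, and 3 were lower (Scn2a, Trpc1 and Scn3a) against 10.6% of all genes. Groups did not overlap for 4 genes higher in HI (Cacnb1, Scn4b, Scn3b and Scnn1a, the last kept through its HI arrays alone), where 10.5% of all genes showed this, and for 3 lower in HI (Scn2a, Scn3a and Trpc1), where 11.2% did. Of these 42 genes 8 passed the unadjusted level (19%), against 20.7% of all genes. With these 7 arrays 38 of the 42 intervals lay within 2-fold of 0.

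**Figure D2:**
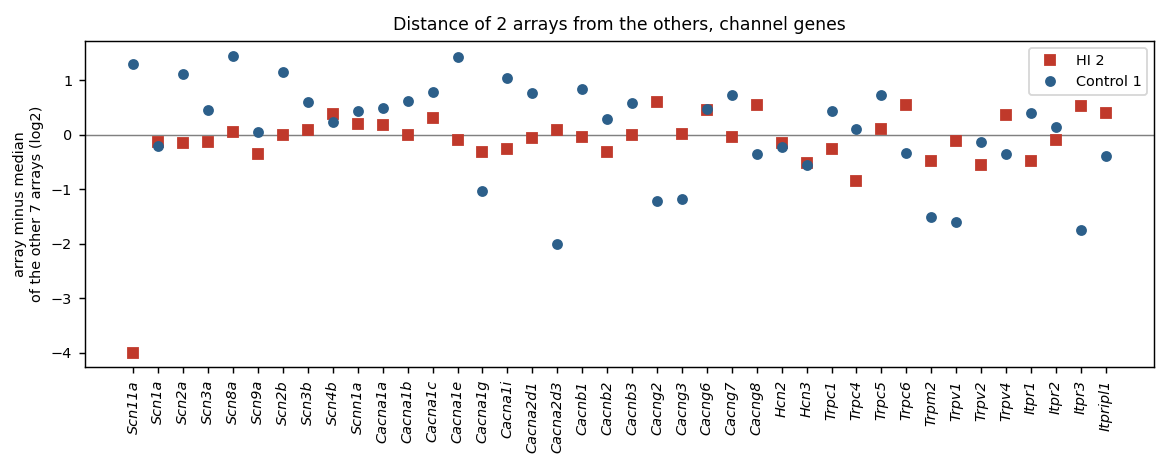
Distance of the HI 2 array (red squares) and the Control 1 array (blue circles) from the median of the other 7 arrays, in log2 units (y axis), for 40 of the channel genes (x axis, by family). Control 1 stands more than 1 unit away for Scn8a, Cacna1e and Cacna2d3 among others, in both directions, and HI 2 is farthest from 0 for Scn11a and Trpc4.

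Among the pore-forming sodium channel subunits, Scn3a was the 1 gene with an unadjusted p under 0.05, and it was lower in HI cortex. Scn3a encodes a subunit known in rodents mainly from the fetal and early postnatal brain. Its levels, in log2 units relative to the 75th percentile of each array (a level of 0), were 0.56, 0.53, 0.33 and 0.66 on HI arrays 1 to 4, against 1.12, 1.14, 1.59 and 0.66 on Control arrays 1 to 4. The highest HI array and the lowest Control array, both numbered 4, met at the same rounded value, and the groups were separate by less than that rounding. The means were 0.52 ± 0.14 in HI and 1.13 ± 0.38 in Control (SD, n = 4 each), a change of -0.61 (SE 0.194, 95% interval -1.06 to -0.16, 1.53-fold lower), with a limma unadjusted p of 0.0135 and an adjusted p of 0.299. Leaving out each array in turn gave changes of -0.77 to -0.46, with an unadjusted p under 0.05 in all 8 of these fits and a lowest adjusted p of 0.162. Gad2, the interneuron enzyme that makes GABA, was also lower on each HI array than on any Control array, as were 8.25% of all genes. It measured 0.57, 0.44, 0.38 and 0.66 in HI, against 1.49, 0.78, 1.29 and 1.19 in Control (change -0.67, limma unadjusted p 0.0034, adjusted p 0.158). Markers on other cell and tissue lists were wholly lower in HI too: Aqp4, S100b, Mog, Opalin, Kdr and Penk. Wholly higher in HI, as were 5.98% of all genes, were Gjb6, Itgam, Col1a2, Col3a1, Hbb and Alas2. Of the 8 interneuron markers 2 lay above 0 and 6 at or below it, with a median change of -0.04. Gad1, the other enzyme that makes GABA, changed by 0.26, or 0.02 without Control 1. Besides Gad2, only Calb2 of these markers passed an unadjusted p under 0.05, where 10.6% of all genes did. The change of Calb2 was -0.81 (limma unadjusted p 0.0201, adjusted p 0.343), with overlapping groups. The summed level of the 8 markers ran over 47.8 to 63.5 in HI and 53.9 to 77.4 in Control on the linear scale. The lowest sum was that of HI 2 and the highest that of Control 1. The part of cell makeup in the Scn3a value was not tested.

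Scn2a, the pore subunit of excitatory neurons' axon initial segments, lies next to Scn3a on chromosome 3, with 0 protein-coding genes between them in the GRCr8 assembly. Scn2a measured 3.30, 3.24, 3.17 and 3.18 on the HI arrays, against 4.41, 3.39, 3.48 and 3.40 on the Control arrays. All 4 HI values were below all 4 Control values, and Control 1 stood far above its group. The change was -0.45 (SE 0.231, 95% interval -0.98 to 0.09, adjusted p = 0.535), and without Control 1 it was -0.20 (unadjusted p 0.0118, adjusted p 0.123). A second kept probe of Scn2a read 3.33, 3.30, 3.21 and 3.25 in HI, against 3.88, 3.16, 3.42 and 3.23 in Control, where the groups overlap. Its change was -0.15 with all arrays and 0.00 without Control 1, in a limma fit over probes, so the lower Scn2a level was seen with 1 of its 2 probes.

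The upstream sequences of this pair are shown because the genes lie side by side and both were lower in HI without overlap by their brightest probe. Such separation was seen for 8.25% of all genes, and the second Scn2a probe did not show it. They come from the 250 bases before each start site in the RefSeq table of the GRCr8 build, 5′ to 3′ on the gene's own strand, with each CpG in capitals. The annotated span of Scn2a begins within its window, so the 156 bases before that span are printed for it. Scn3a lies on the minus strand at chr3:70666199-70666448 and Scn2a on the plus strand at chr3:70710706-70710861.
Scn3a: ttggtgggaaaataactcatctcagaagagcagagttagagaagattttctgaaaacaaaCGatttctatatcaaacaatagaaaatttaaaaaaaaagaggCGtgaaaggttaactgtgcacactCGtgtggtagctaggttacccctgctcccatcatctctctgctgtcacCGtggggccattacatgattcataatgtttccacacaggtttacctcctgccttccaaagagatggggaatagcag
Scn2a: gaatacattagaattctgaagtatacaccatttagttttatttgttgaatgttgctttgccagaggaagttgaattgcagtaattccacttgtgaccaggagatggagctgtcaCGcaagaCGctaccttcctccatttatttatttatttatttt
The Scn3a window holds 4 CpG with a GC content of 41.6%, where the median over 33469 rat promoters of the same length is 5 CpG and 51.2%. The shorter Scn2a sequence holds 2 CpG with a GC content of 35.3%. The GC box (GGGCGG, either strand) is in neither, nor is CAGCACC, the core of the RE1 element bound by the neuronal repressor REST. Over all promoters 30.5% hold the GC box and 5.4% the RE1 core. Of the 43 channel genes with a promoter in the table, 19 hold the GC box (44.2%) and 3 the RE1 core (7.0%). A missing match says only that these letters are not in these windows.

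The remaining pore subunits gave no separation of the groups. Scn1a, the subunit prominent in fast-spiking interneurons, measured -0.50, -0.64, -0.37 and -0.34 in HI, against -0.70, -0.74, -0.46 and -2.89 in Control. A single low value on Control 4 sets its change of 0.74 (SE 0.503, 95% interval -0.42 to 1.90, limma adjusted p 0.583), which was 0.17 without that array and up to 0.98 without another. Scn8a, the main adult subunit of nodes and initial segments, measured 1.59, 1.64, 1.70 and 1.57 in HI, against 3.04, 1.59, 1.83 and 1.34 in Control. Control 1 again stood apart, and the change of -0.32 (95% interval -1.10 to 0.45) became 0.04 without it. Scn9a and Scn11a are best known from pain-sensing neurons, and both were dim here. Scn9a changed by -0.25 (95% interval -0.64 to 0.14). Scn11a read -3.43, -7.44, -6.03 and -4.01 in HI, against -2.71, -2.97, -4.58 and -3.17 in Control, and was well above background on 2 HI and all 4 Control arrays. It passed the filter through the Control arrays alone, and the fitted change of -1.87 (SE 0.882, 95% interval -3.90 to 0.16, limma adjusted p 0.510) rests in part on HI values not well above background. Without HI 2 it was -1.13, and without HI 1 it was -2.47. With normexp background correction it was -0.65, and -0.46 with quantile scaling as well, so its size depends on the treatment of dim signal.

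The sodium channel beta subunits, single-pass proteins that modulate gating and act as adhesion molecules, had no member past the adjusted test. Scn4b, the subunit linked to resurgent sodium current, measured 2.15, 2.38, 2.51 and 2.01 in HI, against 2.24, 1.69, 1.75 and 1.90 in Control. The groups overlap through Control 1 alone. Its means were 2.26 ± 0.22 in HI and 1.90 ± 0.24 in Control (SD, n = 4 each), a change of 0.37 (SE 0.167, 95% interval -0.02 to 0.75, limma adjusted p 0.496), and 0.48 without Control 1 (limma unadjusted p 0.00803, adjusted p 0.101). Leaving out each array in turn kept the change between 0.28 and 0.48.

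Scn3b, another beta subunit, measured 7.48, 7.48, 7.63 and 7.39 in HI, against 7.99, 7.11, 7.36 and 7.15 in Control. Its change of 0.09 became 0.29 without Control 1 (limma unadjusted p 0.0142, adjusted p 0.133), with every HI value then above the other Control values. Scn2b measured -2.73, -2.68, -2.63 and -2.67 in HI, against -1.54, -2.52, -2.72 and -2.74 in Control. The 4 HI arrays were close together and the change of -0.30 rested on Control 1, being -0.02 without it.

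**Figure D3:**
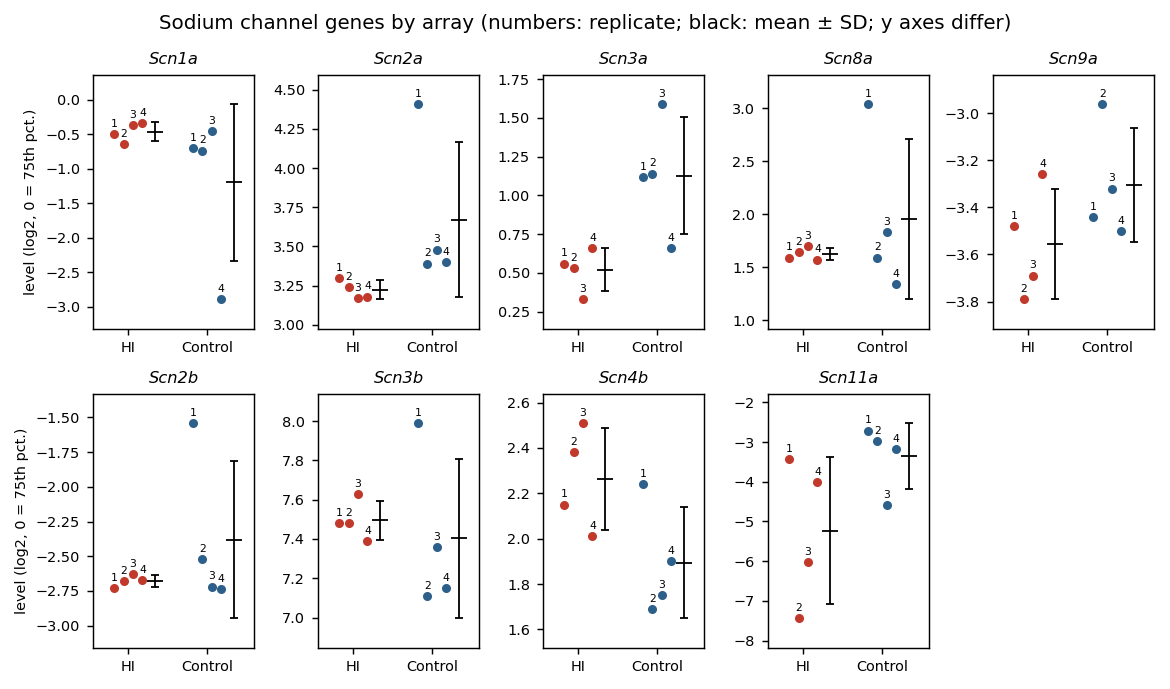
Level of 9 voltage-gated sodium channel genes (log2, 0 is the array's 75th percentile, y axes differ) on each HI (red, left) and Control (blue, right) array, with replicate numbers, and mean ± SD in black. Scn3a and Scn2a lie lower in HI, Scn1a has 1 low Control array, and Control 1 stands apart for Scn2a, Scn8a, Scn2b and Scn3b.

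Scn2b and Scn4b are also direct neighbours, on chromosome 8, with 0 protein-coding genes between them. Their upstream windows are shown because the pair holds Scn4b, described above, and the gene beside it. Scn4b changed by 0.37 and Scn2b by -0.30 (0.48 and -0.02 without Control 1); the difference between these changes was not tested. They lie at chr8:54343623-54343872 and chr8:54322133-54322382, both on the plus strand, from the same table and with each CpG again in capitals.
Scn4b: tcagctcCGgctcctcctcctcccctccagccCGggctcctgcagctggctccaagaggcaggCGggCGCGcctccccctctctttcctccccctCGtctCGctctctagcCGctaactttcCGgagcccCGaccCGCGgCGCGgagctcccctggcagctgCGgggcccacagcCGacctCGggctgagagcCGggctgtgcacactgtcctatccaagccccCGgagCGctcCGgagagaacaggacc
Scn2b: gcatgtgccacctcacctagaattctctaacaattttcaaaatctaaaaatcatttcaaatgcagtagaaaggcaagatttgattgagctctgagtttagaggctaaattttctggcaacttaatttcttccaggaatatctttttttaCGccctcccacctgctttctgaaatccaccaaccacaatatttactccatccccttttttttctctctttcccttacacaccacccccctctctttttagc
The Scn4b window holds 21 CpG (GC content 71.6%), a number reached or passed by 15.1% of rat promoters, and the Scn2b window holds 1 (38.8%). Neither holds the GC box or the RE1 core. The median over the channel genes' promoters is 10 CpG and a GC content of 62.0%.

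The epithelial sodium channel was represented by Scnn1a, its alpha subunit, well above background on 4 HI arrays and 1 Control array, so that it passed the filter through HI alone. It read -4.00, -3.94, -4.12 and -4.13 in HI, against -3.69, -4.68, -4.24 and -4.29 in Control. The groups overlap through Control 1 alone, the change was 0.18 with all arrays and 0.35 without Control 1 (limma unadjusted p 0.0218, adjusted p 0.163), and under normexp background correction it was -0.13.

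The proteins that hold sodium channels at the initial segment or tune their inactivation showed no called gene either. Of 9 anchor and FGF homologous factor genes on the array 8 were kept, 0 were called (0.918% of all genes) and 0 passed an unadjusted p under 0.05 (10.6% of all genes). Of these 3 lay above 0 and 5 below, with a median change of -0.12 that was 0.05 without Control 1. Ank3, which builds the initial segment scaffold, changed by -0.21 (0.06 without Control 1). Fgf13, an FGF homologous factor that binds sodium channels, changed by 0.19 (SE 0.102, limma unadjusted p 0.0938).

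None of the 6 kept genes for pore subunits of voltage-gated calcium channels passed the test. With all arrays 5 of the 6 changes were below 0 and they ran between -0.47 and 0.24 (median -0.18). Without Control 1 they ran between -0.16 and 0.10 (median 0.01). Cacna1a, of the P/Q-type channels that trigger transmitter release, measured -1.91, -1.57, -1.75 and -2.00 in HI, against -1.27, -1.75, -1.48 and -1.73 in Control. The groups overlap, with a change of -0.25 (SE 0.153, 95% interval -0.60 to 0.10, limma adjusted p 0.573). Cacna1b, of the N-type channels, measured 3.33, 3.23, 3.23 and 3.29 in HI, against 3.84, 3.04, 3.23 and 3.24 in Control, a change of -0.07 (0.10 without Control 1). Its HI values lie within the Control range. Cacna1c, the main L-type pore of the brain, measured -0.81, -0.53, -0.93 and -0.85 in HI, against -0.06, -0.85, -0.68 and -0.94 in Control, a change of -0.15 (95% interval -0.62 to 0.32) that was 0.04 without Control 1.

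Cacna1e, of the R-type channels, measured -1.44, -1.42, -1.32 and -1.49 in HI, against 0.06, -1.27, -1.22 and -1.37 in Control. Control 1 lay more than 1 unit above every other array, and was the highest array with the other kept probes of this gene too. The change of -0.47 (SE 0.306, limma adjusted p 0.581) was -0.13 without it. The low-voltage T-type pores drive burst firing. Cacna1g measured -0.24, -0.75, -0.52 and -0.26 in HI, against -1.47, -0.34, -0.48 and -0.44 in Control, and Control 1 was the lowest array. Its change was 0.24 with all arrays and -0.02 without Control 1. Cacna1i measured -3.58, -3.76, -3.41 and -3.49 in HI, against -2.54, -3.73, -3.48 and -3.59 in Control, where Control 1 was the highest array. Its change was -0.22 with all arrays and 0.04 without Control 1, so the same array moved these T-type genes in opposite directions.

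The alpha2delta and beta subunits carry the pore to the membrane, and the alpha2delta subunit encoded by Cacna2d1 is a target of gabapentin. The value of Cacnb1 depended on the choice of arrays: it measured 1.93, 1.89, 2.00 and 2.11 in HI, against 2.73, 1.56, 1.73 and 1.71 in Control. The HI arrays lay above Control 2 to 4 and below Control 1. Its change was 0.05 (SE 0.250, limma adjusted p 0.915) with all arrays and 0.32 (unadjusted p 0.00502, adjusted p 0.0811) without Control 1. Cacna2d1 measured 5.88, 5.73, 5.77 and 5.79 in HI, against 6.54, 5.59, 5.82 and 5.75 in Control, a change of -0.13 (95% interval -0.60 to 0.34) with overlapping groups, and 0.07 without Control 1. Cacna2d3 measured 2.37, 2.36, 2.3 and 2.15 in HI, against 0.29, 2.15, 2.41 and 2.28 in Control. Its change of 0.51 (SE 0.444, limma adjusted p 0.596) rested on Control 1 and was 0.01 without it. Cacnb2 changed by -0.05 and Cacnb3 by -0.11 (0.03 and 0.04 without Control 1), and a second probe of Cacnb2 gave 0.41 (SE 0.249) in the fit over probes.

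The gamma subunit genes mostly encode TARPs, which bring AMPA-type glutamate receptors to the synapse. Cacng2 (stargazin) measured 1.61, 1.99, 1.58 and 1.36 in HI, against 0.34, 1.22, 1.56 and 1.39 in Control. The groups overlap, and the change of 0.51 (SE 0.274, 95% interval -0.12 to 1.14, limma adjusted p 0.547) was 0.25 without Control 1. Cacng3 measured 0.27, 0.09, 0.07 and 0.02 in HI, against -1.09, -0.15, 0.29 and 0.31 in Control, a change of 0.27 that was -0.04 without Control 1. Cacng8 measured 2.10, 2.44, 2.16 and 1.84 in HI, against 1.74, 1.90, 2.32 and 1.85 in Control, with overlapping groups and a change of 0.18 (95% interval -0.22 to 0.58). It neighbours Cacng6 and Cacng7 on chromosome 1, with 0 protein-coding genes between, and these changed by -0.27 and -0.17. None of the neighbours passed an unadjusted p under 0.05.

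Hcn2 and Hcn3, both pore subunits of HCN channels, had groups that overlap and did not pass the test. Hcn2 measured -1.78, -1.94, -1.75 and -1.78 in HI, against -2.01, -2.05, -1.82 and -1.77 in Control, and had a narrow interval, -0.16 to 0.36 around a change of 0.10. Hcn3 measured -1.50, -2.19, -2.00 and -1.66 in HI, against -2.22, -1.64, -1.78 and -1.54 in Control, a change of -0.04 (95% interval -0.52 to 0.43), or -0.18 without Control 1. The Hcn3 groups spanned nearly the same range. A second kept probe of Hcn3 gave -0.02, or 0.22 without Control 1, in the limma fit over probes. Hcn4, the cardiac and thalamic pacemaker form, was not well above background on any array.

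Pex5l, which encodes the auxiliary subunit TRIP8b that controls HCN channels at the membrane, was lower on all HI arrays than on any Control array, as were 8.25% of all genes. It measured 3.87, 2.19, 3.92 and 3.66 in HI, against 4.85, 4.06, 4.13 and 4.23 in Control. The change was -0.91 (SE 0.396, limma unadjusted p 0.0512, adjusted p 0.476) and -0.73 without Control 1, and HI 2 was its lowest array. All 3 HCN and leak channel partners on the array were kept, 0 were called and 0 passed an unadjusted p under 0.05, with a median change of -0.07. Of the others, Cav3 changed by -0.07 and Kcne2 by 1.5 (SE 1.37, limma unadjusted p 0.305), or 0.64 without Control 1. Kcne2 is also on the list of choroid plexus markers. It measured -4.33, -3.75, -0.36 and -0.50 in HI, against -6.33, -0.62, -4.29 and -3.70 in Control. On HI 2 other genes stood apart too. Wfs1, a marker of hippocampal fields and parts of cortex, measured 2.57, -1.17, 2.60 and 2.29 in HI, against 1.13, 2.13, 2.78 and 2.75 in Control. The other hippocampal and thalamic markers did not share this low value: Prkcd and Lef1 were higher on HI 2 (1.16 and -3.16) than on the other HI arrays, and Calb2 read 1.37 on HI 2 and 1.42 on HI 3, the nearest array. Col1a2, a fibroblast collagen, measured 1.46, 5.28, 1.82 and 1.90 in HI, against 1.09, 1.01, 0.69 and 0.94 in Control. The summed linear level of the 8 meningeal and fibroblast markers ran over 14.6 to 169 in HI, with HI 2 the highest, and 9.76 to 41.7 in Control. What these tissue markers have to do with the Pex5l values was not tested.

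**Figure D4:**
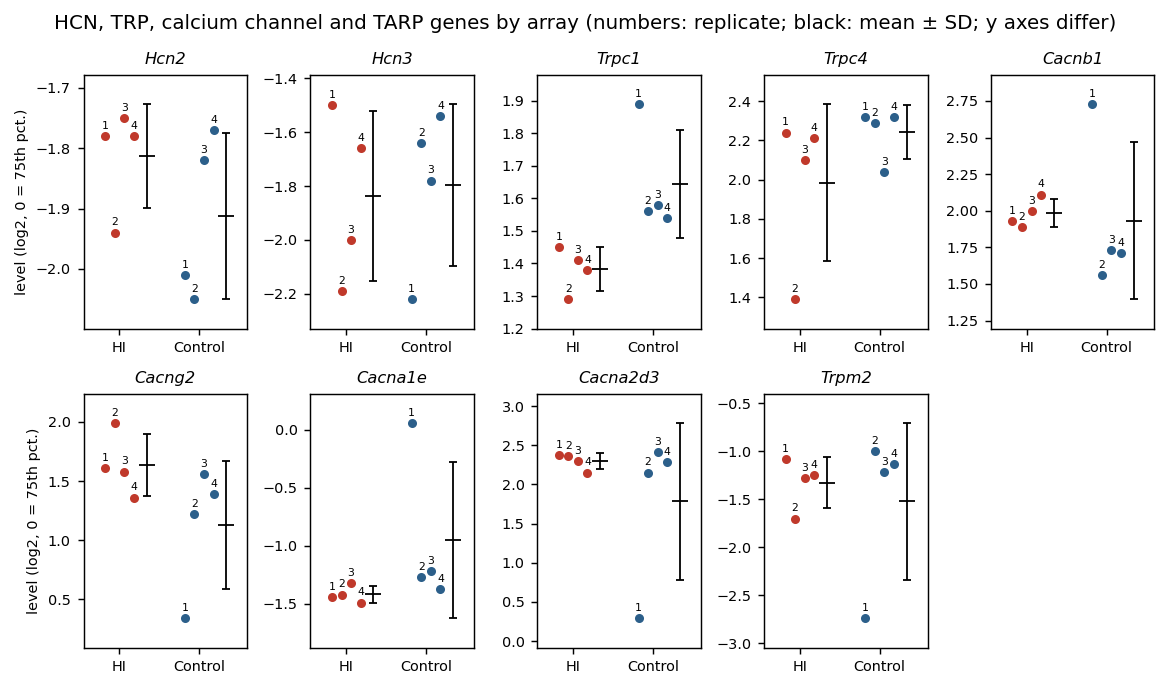
Level of 9 HCN, TRP, calcium channel and TARP genes (log2, 0 is the array's 75th percentile, y axes differ) on each HI (red, left) and Control (blue, right) array, with replicate numbers, and mean ± SD in black. HI 2 is the low array for Trpc4, and Control 1 is the far array for Cacnb1, Cacng2, Cacna1e, Cacna2d3 and Trpm2.

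Among the TRP channels, Trpc1 was the gene whose groups did not overlap. Trpc1, a receptor-operated cation channel subunit, measured 1.45, 1.29, 1.41 and 1.38 in HI, against 1.89, 1.56, 1.58 and 1.54 in Control. Its means were 1.38 ± 0.07 in HI and 1.64 ± 0.17 in Control (SD, n = 4 each), a change of -0.26 (SE 0.115, 95% interval -0.53 to 0.00, 1.20-fold lower, limma unadjusted p 0.0523, adjusted p 0.479). Without Control 1 it was -0.18 (unadjusted p 0.0199, adjusted p 0.156), and leaving out each array gave -0.30 to -0.18. Its standard error was below the median of 0.224 over the 42 genes.

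Trpc4 and Trpc5 encode closely related receptor-operated channels. Trpc4 measured 2.24, 1.39, 2.10 and 2.21 in HI, against 2.32, 2.29, 2.04 and 2.32 in Control. HI 2 was the low array, and the change of -0.26 was -0.06 without it. Trpc5 measured -3.92, -3.91, -4.64 and -4.01 in HI, against -3.29, -4.35, -3.89 and -4.33 in Control, dim values with a change of -0.16 (95% interval -0.79 to 0.48), or 0.07 without Control 1. Trpc5 passed the filter through HI alone, with 3 Control arrays well above background. Trpc6 changed by -0.05 (-0.18 without Control 1). Trpm2, opened by oxidative stress, measured -1.08, -1.70, -1.28 and -1.25 in HI, against -2.74, -1.0, -1.22 and -1.13 in Control. Its change of 0.20 was -0.21 without Control 1, the low array. The heat and capsaicin receptor Trpv1 changed by 0.35 (95% interval -0.57 to 1.27) and by -0.08 without Control 1, and Trpv2 by -0.21. Trpv1 passed the filter through HI alone, with 2 Control arrays well above background.

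Trpv4, an osmosensitive channel known from choroid plexus epithelium as well as glia, varied widely within both groups. It measured -3.42, -2.76, -2.04 and -2.17 in HI, against -3.12, -2.09, -4.02 and -3.81 in Control. The highest arrays were HI 3, HI 4 and Control 2, and the change was 0.66 (SE 0.472, 95% interval -0.43 to 1.75, limma adjusted p 0.585), or 1.05 without Control 2 and 0.41 without Control 3. The choroid plexus marker Ttr measured 0.11, 3.86, 8.00 and 7.83 in HI, against -0.97, 7.62, -0.99 and 1.41 in Control, and Kcnj13, a potassium channel of that epithelium, -3.88, -0.39, 2.23 and 2.06 in HI, against -5.99, 2.20, -5.68 and -4.89 in Control. The 3 arrays with the highest Trpv4 were those with the highest Ttr and Kcnj13. Of the 9 choroid plexus and ependyma markers on the array 5 were kept (Kl, Clic6, Aqp1 and Slc4a5 were not), and their summed linear level ran over 4.13 to 270 in HI and 3.18 to 211 in Control. The part of this tissue in the Trpv4 values was not tested.

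**Figure D5:**
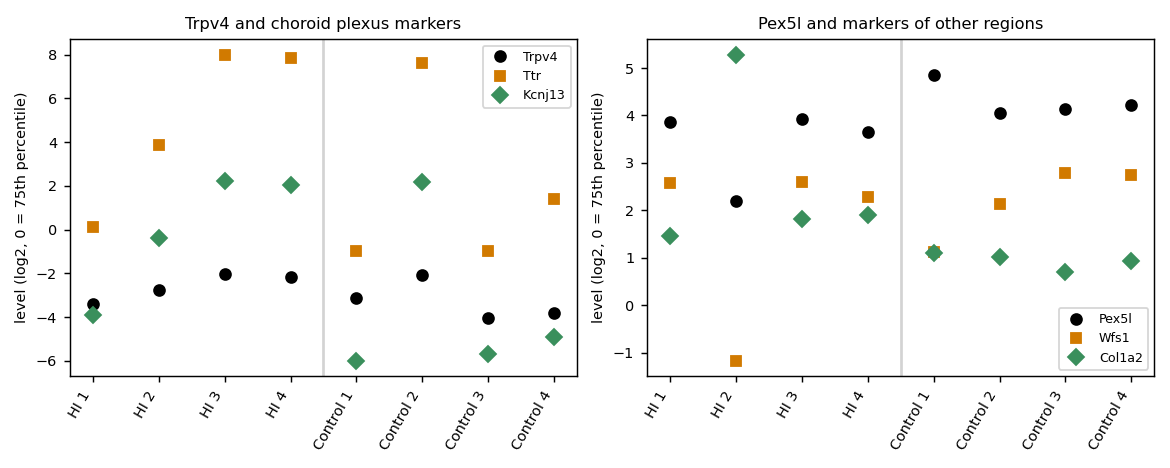
Levels on each array (x axis, HI left, Control right; y axis log2, 0 is the array's 75th percentile) of Trpv4 beside the choroid plexus markers Ttr and Kcnj13 (left panel), and of the HCN channel partner Pex5l beside Wfs1 and Col1a2 (right panel). Trpv4, Ttr and Kcnj13 are all high on HI 3, HI 4 and Control 2, and on HI 2 Pex5l and Wfs1 are low while Col1a2 is high.

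The genes of calcium release from stores gave changes of -0.04 to 0.67, none of them called. Itpr1, the neuronal inositol trisphosphate receptor, measured 5.0, 4.51, 5.20 and 5.03 in HI, against 5.17, 4.78, 4.70 and 4.77 in Control, a change of 0.08 (95% interval -0.34 to 0.50), or 0.19 without Control 1. Its kept probes differed in direction, since a second one gave -0.72 (SE 0.408, unadjusted p 0.114) in the limma fit over probes, and the groups overlap with either. Itpr2, the form of astrocytes, had a narrow interval, -0.28 to 0.20 around -0.04. Itpr3 measured -3.47, -2.93, -3.27 and -3.44 in HI, against -5.19, -3.64, -3.69 and -3.27 in Control, with overlapping groups. It was well above background on 4 HI and 3 Control arrays, so it passed the filter through HI alone. Its change of 0.67 (SE 0.392, limma adjusted p 0.564) was 0.26 without Control 1. With normexp background correction it was 0.00, and 0.21 with quantile scaling as well. Itpripl1 changed by 0.31 (95% interval -0.29 to 0.92) and also passed the filter through HI alone, with 2 Control arrays well above background.

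Among partner genes of calcium entry, storage and extrusion none was called. All 13 store and entry genes on the array were kept, 0 were called, 7 lay above 0 and 6 below, and the median change was 0.05. Orai3, a store-operated channel subunit, was the 1 of the 13 at an unadjusted p under 0.05, where 10.6% of all genes were. It measured -1.23, -0.71, -1.16 and -1.45 in HI, against -2.15, -1.69, -1.33 and -1.49 in Control (change 0.52, SE 0.221, limma unadjusted p 0.0449, adjusted p 0.454), and the groups overlap. Without Control 1 the change was 0.36 (unadjusted p 0.0828). Calm2, a calmodulin gene of the same list, lay wholly higher in HI: 6.65, 6.61, 6.58 and 6.62, against 5.77, 6.51, 6.43 and 6.55 in Control. Its change was 0.30 (SE 0.179, limma unadjusted p 0.132, adjusted p 0.570), or 0.12 without Control 1. Of 8 pump and exchanger genes on the array 7 were kept, 0 were called, 3 lay above 0 and 4 at or below it, with a median of 0.00. Slc8a1, a sodium-calcium exchanger, changed by -0.46 (SE 0.242, limma unadjusted p 0.0941). Slc24a2, a potassium-dependent exchanger of the same list, measured 2.29, 1.89, 2.11 and 1.94 in HI, against 1.87, 1.89, 1.78 and 1.64 in Control. Its HI values lay above the Control values by less than the rounding at the nearest pair, as 5.98% of all genes lay wholly above, with a change of 0.26 (SE 0.125, limma unadjusted p 0.0681, adjusted p 0.513), or 0.29 without Control 1 (unadjusted p 0.0402, adjusted p 0.218).

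The genes with several probes show how far 1 probe can carry a result. Of the 42 genes 9 had more than 1 kept probe, and for 6 of them all kept probes lay on the same side of 0 with all arrays. The exceptions were Cacnb2, Itpr1 and Itpr2, each with small changes by its brightest probe. Without Control 1 the kept probes of Hcn3 (-0.18 and 0.22), Cacna1b (0.10 and -0.08) and Cacna1i (0.04 and -0.01) also lay on opposite sides. Those of Cacnb2 and Itpr2 then lay on the same side, and those of Itpr1 did not.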

How the data were processed

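Per the labels' protocols, total RNA from 1 animal was used for each Agilent rat array, labelled with the dye Cy3. The deposited scanner files, per the file headers the output of version 9.5.3.1 of Agilent Feature Extraction, hold a background-subtracted intensity per spot, the median spot and background intensity, and flags. The authors' deposited series table holds log2 values; its scale, centring and direction were settled by setting it against the scanner values, with correlations of 0.9997 or higher. Its column medians were 0.48 for Control 1 and -0.05 to 0.04 for the other arrays.

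Values were log2 of the processed intensity minus the array's 75th percentile. The 1639 control spots and outlier-flagged spots were left out, and spots of a probe were averaged. A probe was kept if all its spots were well above background on each HI array or on each Control array (24865 of 41012 probes), and the brightest kept probe stood for its gene. Accessions in the files were matched, without version, to RefSeq names of GRCr8 (10735 probes, 26.2%). The array design predates that assembly, which gave only names, neighbours and promoter sequences. Groups were compared by limma 3.58.1 (lmFit and eBayes, R 4.3.3), with Benjamini-Hochberg adjustment over 21667 genes; overlap of groups was counted over the 21620 genes with no missing value. A ± gives the SD, and each change is HI minus Control on the log2 scale. The fit was also run on simulated data with independent noise and the same spread in both groups. The real spread differed, with a median SD over all genes of 0.116 on HI and 0.359 on Control arrays. That run therefore does not test the fit under the conditions of these arrays. Arrays are counted as separate animals as the labels describe them, and the number of arrays limits the precision. Pairing by replicate number was checked: deviations of same-numbered arrays correlated at -0.16 to 0.03. These correlations gave no sign of pairing by number. With so few arrays in each group they cannot exclude such pairing.

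The genes and the partner and marker lists were chosen with earlier results of these data known. A few members enter the counts only and are not reported here. Values on every array are given for channel genes passing an unadjusted p under 0.05 or with groups that do not overlap, the 3 highest and 3 lowest changes, and the best known neuronal channels. The alternatives were normexp background correction (offset 50, on the median spot signal) with either scaling, quantile scaling, median centring, the authors' table, other filters on dim probes, the mean of a gene's probes, array weights, a robust prior with an intensity trend, the replicate number as a block, and each array left out in turn. A fit without both Control 1 and HI 2 was added after the data had been seen.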

Additional observations from a re-analysis of the deposited data

Results flagged for a closer look

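Of the 82 groups of 4 arrays formed by 40 of the channel genes and the marker Ttr, 13 held an array that lay apart by Dixon's 95% ratio for 4 values, which chance gives for about 1 group in 20. HI 2 was such an array for Trpc4 (1.39, the other HI arrays 2.10 to 2.24), HI 1 for Itpr2 (-2.40, the others -2.60 to -2.58) and HI 3 for Trpc5 (-4.64, the others -4.01 to -3.91). Control 1 accounted for 8 of the 13. It was high for Scn2a (4.41, the other Control arrays 3.39 to 3.48), Cacna1e (0.06, the others -1.37 to -1.22), Cacnb1 (2.73, the others 1.56 to 1.73), Itpr1 (5.17, the others 4.70 to 4.78) and Trpc1 (1.89, the others 1.54 to 1.58). It was low for Cacna1g (-1.47, the other Control arrays -0.48 to -0.34), Cacna2d3 (0.29, the others 2.15 to 2.41) and Trpm2 (-2.74, the others -1.22 to -1.0). Control 4 was low for Scn1a (-2.89, the others -0.74 to -0.46) and Control 3 for Trpc4 (2.04, the others 2.29 to 2.32). All are log2 levels relative to the array's 75th percentile.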

How the results depend on the processing

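The count of called channel genes was 0 in every one of the 20 alternative settings. Scn3a kept its direction and an unadjusted limma p under 0.05 in all the settings, with an adjusted p of 0.0852 to 0.655. The lowest adjusted p of any of the 42 genes was 0.0607, for Cacnb1 under array weights. The number of channel genes at an unadjusted p under 0.05, 1 with the settings used above, was 4 with normexp at the 75th percentile, 5 with normexp and quantile scaling, 4 with quantile scaling, 2 with median centring, 4 with no filter, 2 with only probes above background on all arrays, 3 with a trend and robust prior, 8 with array weights (21.9% of all genes), and 8 without Control 1 and HI 2 together (20.8% of all genes); in the settings before these 8.35% to 11% of all genes passed that level. Without 1 array it was 1 to 8, where 7.22% to 20.7% of all genes passed. The count over all genes, 199, became 1327 with array weights, 713 without Control 1 and HI 2 together, and 117 to 796 without 1 array, the highest without Control 1 (weight 0.0328). The replicate block gave 69 of all genes called and none of the 42. At an unadjusted p under 0.05 it gave 2 channel genes, where 8.53% of all genes passed. The slide or scan could not be run as a block, since each held 1 group.

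Of 40 of these genes 18 kept the sign of their change throughout, and the other genes changed sign 67 times in all, 26 of them when 1 array was left out; none was a called change. Without 1 array, the lowest and highest changes of those that turned were -0.16 and 0.10 for Cacna1b, -0.25 and 0.04 for Cacna1c, -0.02 and 0.35 for Cacna1g, -0.35 and 0.04 for Cacna1i, -0.24 and 0.07 for Cacna2d1, -0.07 and 0.32 for Cacnb1, -0.10 and 0.04 for Cacnb2, -0.22 and 0.04 for Cacnb3, -0.04 and 0.43 for Cacng3, -0.18 and 0.07 for Hcn3, -0.01 and 0.22 for Itpr1, -0.01 and 0.29 for Scn3b, -0.53 and 0.04 for Scn8a, -0.28 and 0.07 for Trpc5, -0.23 and 0.09 for Trpc6, -0.21 and 0.37 for Trpm2, and -0.08 and 0.54 for Trpv1. Without Control 1 and HI 2 together, Cacna1b was 0.12, Cacna1i 0.11, Cacna2d1 0.10, Cacna2d3 -0.01, Cacnb2 0.12, Cacnb3 0.05, Cacng3 -0.03, Cacng7 0.02, Itpr2 0.00, Scn8a 0.03, Trpm2 -0.09 and Trpv1 -0.03. Array weights gave 0.11 for Cacna1b, 0.08 for Cacna1i, 0.08 for Cacna2d1, 0.09 for Cacnb2, 0.04 for Cacnb3, -0.01 for Cacng3, 0.00 for Cacng7, 0.01 for Scn8a, -0.12 for Trpm2 and -0.03 for Trpv1. Median centring gave 0.01 for Cacna1b, 0.02 for Cacnb2, 0.03 for Hcn3, 0.04 for Itpr2 and 0.02 for Trpc6. Quantile scaling gave 0.02 for Cacnb3, 0.02 for Hcn3, 0.03 for Itpr2 and 0.02 for Trpc6, and with normexp 0.02 for Cacna1i, 0.01 for Cacnb3, 0.00 for Hcn3 and 0.00 for Itpr2. Normexp at the 75th percentile gave -0.12 for Itpripl1, -0.13 for Scnn1a and -0.10 for Trpv1. The mean of a gene's kept probes gave 0.18 for Cacnb2, -0.32 for Itpr1 and 0.09 for Itpr2. The cause of these turns was not tested. The dim genes Scn11a, Scnn1a and Trpv1 were not well above background on every array, and of these Scn11a did not change sign.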
